A study of Schizosaccharomyces pombe with 4 samples.

Results

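The large subunit of the cytosolic ribosome carries the peptidyl transferase centre, and its proteins are encoded in fission yeast (Schizosaccharomyces pombe) by a large set of nuclear genes, many of them present as near-identical paralogs. The genes described here are those whose symbol is rpl followed by a number, together with the genes of the P-stalk, rpp0 and the acidic proteins rpp101 to rpp103 and rpp201 to rpp203. By that rule 77 of the 4880 genes named on the array belong to the set, each with 1 spot, and 76 of them had a value on all 4 arrays and were tested; rpl3002 had no value on wild-type replicate 2. A further 6 genes that match the rule in the RefSeq gene table were not analysed here: rpl1802, rpl2001, rpl2002, rpl3703, rpl4101 and rpl4102.

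Ribosomal protein transcripts make up a large share of the messenger RNA of growing yeast, and their production is known to drop together when cells meet heat, starvation or loss of TOR signalling. Each large subunit contains a single copy of most of its proteins, the acidic stalk proteins being the exception, so the genes are usually described as one regulon. Mmi1 is a nuclear RNA-binding protein that directs meiotic transcripts to the exosome during vegetative growth.

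PolyA RNA was compared on 4 arrays with 2 channels each. On every array, cells held for 30 min at 36 °C were set against growing 25 °C cells of that strain, all in YES, a rich medium. Strain JV565 carries the temperature-sensitive allele mmi1-ts3, for which 36 °C is restrictive, and strain JV558 is the wild-type control, with 2 arrays per strain. In each strain replicate 2 has a code in its array title and replicate 1 has none, which is the only batch the labels give. Each strain is a single strain, and nothing states that its 2 arrays came from separate cultures, so the spread between arrays, and every p built on it, may be technical.

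All values below are log2 ratios of 36 °C over 25 °C, centred on the median of each array, so that −1 stands for a 2-fold fall relative to the median gene. Neither the log base nor the direction of the ratio is stated in these sources. A positive value was taken to mean more RNA at 36 °C, which is likely rather than certain, because 12 of 13 heat shock genes, such as hsp16 at 7.21 ± 0.57 in mmi1-ts3 and 7.38 ± 0.50 in the wild type (SD, n = 2 each), were positive on all 4 arrays. Spots with a value numbered between 5121 and 5184 per array, and the number of arrays limits the precision. The transcript of mmi1 had 0.24 and 0.66 on the mmi1-ts3 arrays and −0.24 and 1.01 on the wild-type arrays; a temperature-sensitive allele need not change its own transcript, so these values check nothing about the labels.

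The large subunit genes lay below the median gene on nearly every array in both strains. Their medians were −0.94 and −1.03 on mmi1-ts3 replicates 1 and 2, and −0.58 and −0.74 on wild-type replicates 1 and 2. Of the 76 genes, 74 were below 0 on all 4 arrays. The exceptions were rpl501, which was above 0 on all 4, and rpl14, which was at 0.04 on wild-type replicate 1 alone. No array carried RNA of both strains, so the strains are compared by their responses to the shift, and these ratios do not tell a fall in synthesis from a fall in stability.

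**Figure D1:**
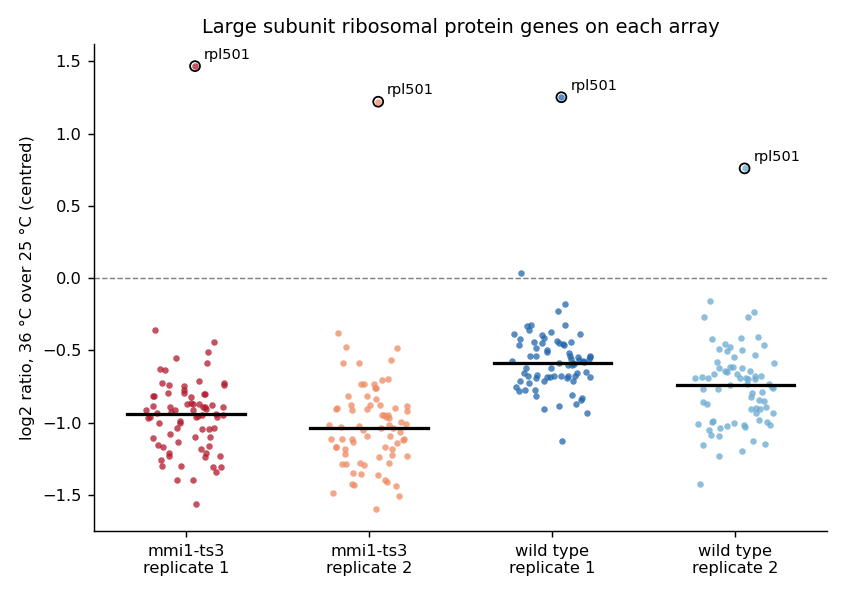
Each point is 1 of the 76 tested large subunit genes, as its centred log2 ratio of 36 °C over 25 °C, on the 2 mmi1-ts3 arrays and the 2 wild-type arrays; black bars are the medians of −0.94, −1.03, −0.58 and −0.74. The gene rpl501, circled, is the only one well above 0 on every array.

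In mmi1-ts3, 72 of the 76 genes fell at an adjusted p under 0.05 (limma, Benjamini-Hochberg over all 4771 genes tested), 1 rose and 3 did not pass. Over all genes, 19.6% were called lower and 14.9% higher in this comparison. The median of the set was −0.99, a ratio of 0.504, against 0.01 over all genes tested. At least 2-fold falls on both arrays were seen for 27 of the 76, against 9.12% of all genes. With mmi1-ts3 replicate 1 or 2 left out the number called lower was 32 and 23, the medians being −1.03 and −0.94.

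In the wild type, 46 of the 76 genes fell and 1 rose, while 29 did not pass. Over all genes, 14.5% were called lower and 13.5% higher. The median of the set was −0.67, a ratio of 0.627, against 0.03 over all genes tested. Only rpp0 was at least 2-fold lower on both wild-type arrays, against 6.6% of all genes. Of the 29 that did not pass, 11 had an adjusted p under 0.06 and 20 an adjusted p under 0.1, so the count of calls rests on a narrow margin. Without wild-type replicate 1 the count was 13, and without replicate 2 it was 1, at medians of −0.74 and −0.58.

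All 46 genes called lower in the wild type were also called lower in mmi1-ts3, and the other 26 called in mmi1-ts3 missed the threshold in the wild type. That does not show a difference between the strains for these 26; the difference itself was tested for each gene, as given further on.

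Related groups of genes were set beside the large subunit. Over all genes, 19.6% were called lower in mmi1-ts3 and 14.5% in the wild type, and 14.9% and 13.5% higher. The 47 tested small subunit genes (rps) had medians of −0.91 and −0.97 on the mmi1-ts3 arrays and −0.51 and −0.63 on the wild-type arrays, close to those of the large subunit on each array. In mmi1-ts3 41 of them fell and in the wild type 18, such as rps2802, at −1.70 ± 0.24 and −1.33 ± 0.43 (SD, n = 2 each), rps2401 (−1.23 in mmi1-ts3) and rps1501 (−0.99 in the wild type). Factors that assemble and mature the large subunit were lower than its structural proteins on all 4 arrays. These 45 genes had medians between −1.85 and −1.65 over the 4 arrays, and 39 of them fell and 1 rose in each strain; dbp3, an RNA helicase, was at −3.29 ± 0.43 in mmi1-ts3 and −3.49 ± 0.49 in the wild type, nop2, whose budding yeast counterpart methylates ribosomal RNA, at −3.27 ± 0.32 and −2.67 ± 0.11, and nip7 at −3.12 ± 0.03 and −2.94 ± 0.43 (SD, n = 2 each).

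Proteins of the mitochondrial large subunit, which belong to a separate ribosome, had medians near that of all genes. Their 27 tested genes had array medians from −0.03 to 0.12 over the 4 arrays, with 2 called lower and 0 higher in mmi1-ts3 and 2 called lower and 1 higher in the wild type. At an unadjusted p under 0.05 there were 7 of the 27 in each strain, a smaller share than the 2205 of 4771 genes in mmi1-ts3 and 1984 of 4771 in the wild type. The gene mrpl12 was at −1.64 ± 0.62 in mmi1-ts3 and −0.99 ± 0.58 in the wild type, mrpl24 had 0.01 and 1.91 on the mmi1-ts3 arrays, and mrpl10, at 0.73 ± 0.04, rose in the wild type (SD, n = 2 each). A list of possible regulators of ribosomal protein genes held 24 genes (TOR pathway and transcription factors). Whether each acts on ribosomal protein genes in fission yeast was not tested. Of the 24, 5 fell and 1 rose in mmi1-ts3, and 2 fell and 1 rose in the wild type. Read against the 19.6% and 14.5% of all genes called lower, these counts do not set the regulators apart. Of these, sfp1, a zinc finger gene whose budding yeast namesake activates ribosomal protein genes, fell in both strains (−1.36 ± 0.13 and −1.10 ± 0.21; adjusted p = 0.00406 and 0.00962). The kinase gene sck2 fell in mmi1-ts3 (−1.37 ± 0.85), and gad8, another kinase of the TOR pathway, was at 1.01 ± 0.41 in the wild type without passing (adjusted p = 0.062).

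**Figure D2:**
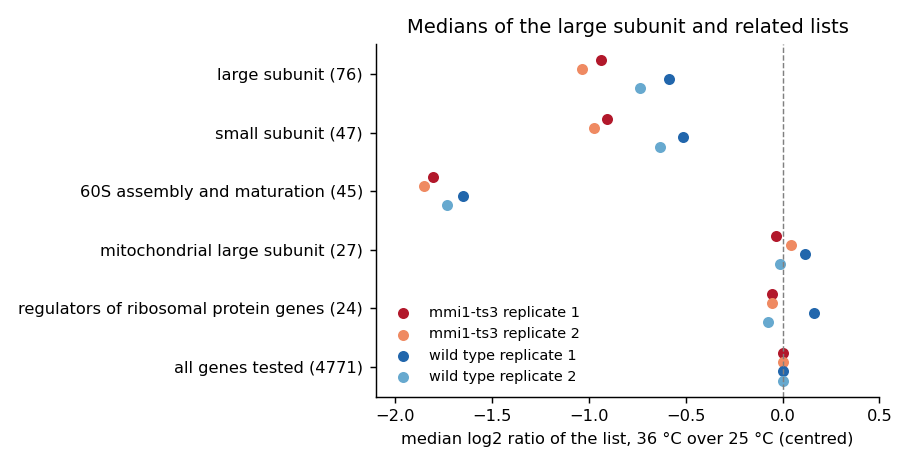
Each point is the median centred log2 ratio of a list of genes on 1 array, with the number of tested genes in brackets. Both ribosomal subunits lie between −1.03 and −0.51, the 60S assembly list between −1.85 and −1.65, and the mitochondrial large subunit and the regulators near the median of all genes.

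The P-stalk is the flexible arm of the large subunit that recruits and activates the translation factors with GTPase activity. Its base protein P0 is encoded by rpp0, which had −1.56 and −1.24 on the mmi1-ts3 arrays and −1.13 and −1.03 on the wild-type arrays. It was thus among the 3 lowest large subunit genes in each strain, and fell in both (adjusted p = 0.00379 in mmi1-ts3 and 0.00995 in the wild type, the second 0.0522 without wild-type replicate 1).

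P1 and P2 bind P0 as pairs and are each encoded by 3 genes. The P1 gene rpp101 had −1.10 and −1.36 in mmi1-ts3 and −0.68 and −1.01 in the wild type. Its paralog rpp102 had −0.74 and −0.92 in mmi1-ts3 and −0.55 and −0.76 in the wild type, the smallest stalk response in mmi1-ts3. The third, rpp103, had −1.04 and −1.18 in mmi1-ts3 and −0.68 and −0.98 in the wild type. All 3 fell in both strains. Without 1 wild-type array each wild-type call was lost, with an adjusted p of 0.0512 to 0.206, and without 1 mmi1-ts3 array so were the mmi1-ts3 calls of rpp102 (0.0833 and 0.162) and rpp103 (0.0526).

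The P2 genes were less alike than the P1 genes in the wild type alone, with means from −1.09 to −0.55 against −0.845 to −0.65. In mmi1-ts3 the P1 genes were the more spread, from −1.23 to −0.83 against −1.22 to −0.97. Values of rpp201 were tight, at −1.16 and −1.23 in mmi1-ts3 and −0.87 and −0.84 in the wild type. Values of rpp202 were spread by array set, at −0.96 and −1.49 in mmi1-ts3 and −0.75 and −1.42 in the wild type. Values of rpp203 were −0.91 and −1.02 in mmi1-ts3 and −0.45 and −0.65 in the wild type. All 3 fell in mmi1-ts3; in the wild type rpp203 did not pass (adjusted p = 0.0612), and the others did. Without wild-type replicate 2, which had the low value, rpp202 was at −0.75 with an adjusted p of 0.152. The wild-type call of rpp201 was lost without either wild-type array (0.0692 and 0.0771), and in mmi1-ts3 those of rpp202 (0.0885) and rpp203 (0.0577 and 0.0842) were lost without 1 array.

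At the base of the stalk, the genes of the protein L12 that contacts P0 on the ribosomal RNA, rpl1201 and rpl1202, fell in both strains, with means of −0.80 ± 0.02 and −1.13 ± 0.03 in mmi1-ts3 and −0.58 ± 0.06 and −0.73 ± 0.06 in the wild type (SD, n = 2 each). The other mobile arm, the L1 stalk, guides transfer RNA out of the exit site. One of its paralogs, rpl102, was the lowest gene of the whole set in mmi1-ts3, with −1.40 and −1.60, against −0.88 and −1.20 in the wild type (adjusted p = 0.00327 and 0.012; 0.0795 in the wild type without its replicate 2). The other, rpl101, had −1.10 and −1.04 in mmi1-ts3 and −0.66 and −0.91 in the wild type, and also fell in both.

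The proteins L5 and L11 join the ribosome together with the 5S ribosomal RNA as a preassembled particle. Both L11 genes fell in both strains, rpl1101 at −1.14 ± 0.05 in mmi1-ts3 and −0.79 ± 0.10 in the wild type, and rpl1102 at −1.29 ± 0.005 and −0.71 ± 0.04 (SD, n = 2 each). The L5 gene rpl502 fell as well, with −1.26 and −1.22 in mmi1-ts3 and −0.68 and −1.08 in the wild type (adjusted p = 0.00591 and 0.0209).

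Its paralog rpl501 went the other way. It had 1.47 and 1.22 on the mmi1-ts3 arrays and 1.25 and 0.76 on the wild-type arrays, the highest value of the set on each array. The next highest tested gene was rpl14, at 0.04 on wild-type replicate 1. The rise of rpl501 was 2.54-fold in mmi1-ts3 (1.34 ± 0.17 SD, adjusted p = 0.00591) and 2.01-fold in the wild type (1.01 ± 0.35 SD, adjusted p = 0.0181), and it was the only large subunit gene called higher in either strain. Without wild-type replicate 1 the wild-type value was 0.76 and missed the threshold (adjusted p = 0.0975); without any other single array both calls held, with an adjusted p of 0.0350 at most. The strains overlapped for rpl501, and the difference of 0.34 ± 0.28 (SE) did not pass.

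The value of rpl501 comes from 1 spot, and whether the spot reports this transcript alone was not tested. The spots on the lines before and after it in the value table, zfs1 and tcd1, ranged from 0.16 to 0.73 and from −0.32 to 0.03 over the 4 arrays. The flanking protein-coding genes in the RefSeq assembly ASM294v3, bop1 and SPOM_SPAC3H5.11, ranged from −0.78 to −0.14 and from −0.09 to 0.46, below rpl501 on every array. RefSeq places 2 long non-coding RNAs, SPOM_SPNCRNA.3522 and SPOM_SPNCRNA.3523, over parts of the gene. Of the 77 genes, 46 overlap an annotated long non-coding RNA, and the share over all genes on the array was not counted. A double-stranded probe would not tell the strands apart, and these sources do not give the type of probe. Whether such RNAs add to the signal of the spot was not tested.

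Around the catalytic centre lie L3, L2 (encoded by rpl801 to rpl803) and L10, the last of which is loaded late, in the cytoplasm. All 7 of these genes fell in mmi1-ts3 and 5 in the wild type, with medians of −1.10 and −0.69. In the whole set 72 and 46 of the 76 genes fell, and of all genes 19.6% and 14.5%. The L3 genes rpl301 and rpl302 were at −1.10 ± 0.04 and −1.13 ± 0.16 in mmi1-ts3 and at −0.59 ± 0.14 and −0.74 ± 0.09 in the wild type (SD, n = 2 each). The L2 genes lay between −1.24 and −1.09 in mmi1-ts3 and between −0.86 and −0.69 in the wild type. The L10 genes had smaller changes: rpl1001 was at −0.86 ± 0.07 and rpl1002 at −0.72 ± 0.13 in mmi1-ts3, and neither passed in the wild type (−0.57 ± 0.16 and −0.49 ± 0.24).

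The nascent chain leaves through a tunnel lined by L4, L17 and L39, with L19, L25, L26, L31 and L35 around its mouth. Of these 12 genes 11 fell in mmi1-ts3, against 72 of the whole set of 76 and 19.6% of all genes. In the wild type 8 fell, against 46 of 76 and 14.5%. Their medians were −1.01 and −0.70. The lowest of the 12 was rpl1902, with −1.23 and −1.42 in mmi1-ts3 and −0.81 and −1.09 in the wild type. The one that passed in neither strain was rpl2501, a gene for the docking site of chaperones and the signal recognition particle, with −0.51 and −0.57 in mmi1-ts3 and −0.60 and −0.41 in the wild type (adjusted p = 0.0544 and 0.0753).

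Outside these parts of the subunit, rpl42 was among the lowest in both strains, with −1.34 and −1.51 in mmi1-ts3 and −0.83 and −1.15 in the wild type; its protein sits at the exit site and is the known site of cycloheximide resistance mutations. The genes rpl3202 (−1.37 ± 0.09 in mmi1-ts3, −0.68 ± 0.15 in the wild type) and rpl15 (−1.34 ± 0.08 and −0.78 ± 0.18) were also among the 6 lowest in mmi1-ts3 (SD, n = 2 each). The 6 lowest in the wild type held rpl2802 (−1.21 ± 0.14 in mmi1-ts3, −0.97 ± 0.06 in the wild type) and rpl2702 (−1.03 ± 0.20 and −0.97 ± 0.27), which fell in both strains. Without wild-type replicate 2 the wild-type calls of rpl42, rpl2802 and rpl2702 were lost, with an adjusted p of 0.0901, 0.0706 and 0.110.

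The smallest falls were shared in part. The gene rpl14 had −0.36 and −0.38 in mmi1-ts3 and 0.04 and −0.27 in the wild type, and passed in neither (adjusted p = 0.155 and 0.654). The gene rpl3702 had −0.44 and −0.48 in mmi1-ts3 and −0.38 and −0.46 in the wild type, also passing in neither. The gene rpl6 fell in mmi1-ts3, with −0.63 and −0.59, and did not pass in the wild type, with −0.33 and −0.16. The gene rpl3401 likewise fell in mmi1-ts3, with −0.71 and −0.70, and had −0.18 and −0.27 in the wild type (adjusted p = 0.348). Whether these responses differ between the strains is a separate test, and neither passed it. The untested rpl3002 had 0.27 and −0.04 in mmi1-ts3 and −0.13 on the single wild-type array that measured it, far from its paralog rpl3001 at −0.96, −0.88 and −0.46 on the same arrays.

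Grouped by origin, the 35 tested genes for proteins that bacteria also have, L1 to L5 among them, had medians of −1.07 in mmi1-ts3 and −0.71 in the wild type. The 35 tested genes for proteins without a bacterial counterpart had −0.92 and −0.63, and the 6 acidic stalk genes −1.15 and −0.84. In the wild type 25 of the first 35 and 16 of the second 35 fell, against 46 of the 76 and 14.5% of all genes. In mmi1-ts3 33 of each 35 did, against 72 of the 76 and 19.6% of all genes. These groups overlap over nearly their whole range and no test compared them. By chromosome, the medians of the genes on chromosomes I, II and III were −0.97, −0.94 and −1.05 in mmi1-ts3 and −0.67, −0.65 and −0.77 in the wild type.

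The order of the genes was similar in the strains. Across the 76 genes the strain means had Pearson r = 0.924 and Spearman rho = 0.851, and r = 0.843 without rpl501, as a description over genes of 1 regulon measured on shared arrays. Arrays of the same set had a higher r than replicates of a strain, by a small margin for replicate 1 against mmi1-ts3. Without rpl501, r was 0.748 between the replicate 1 arrays and 0.844 between the replicate 2 arrays. It was 0.701 between the mmi1-ts3 arrays and 0.568 between the wild-type arrays. In the same order Spearman rho was 0.703, 0.838, 0.696 and 0.516, so replicate 1 and mmi1-ts3 were nearly equal by rank. Some genes moved with the set in both strains. On replicate 2, minus replicate 1, rpl22 was at −0.46 in mmi1-ts3 and −0.75 in the wild type, rpl31 at −0.61 and −0.59, and rpl3802 at −0.35 and −0.63. Across all 76, 53 were lower on replicate 2 of mmi1-ts3 and 60 on replicate 2 of the wild type.

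**Figure D3:**
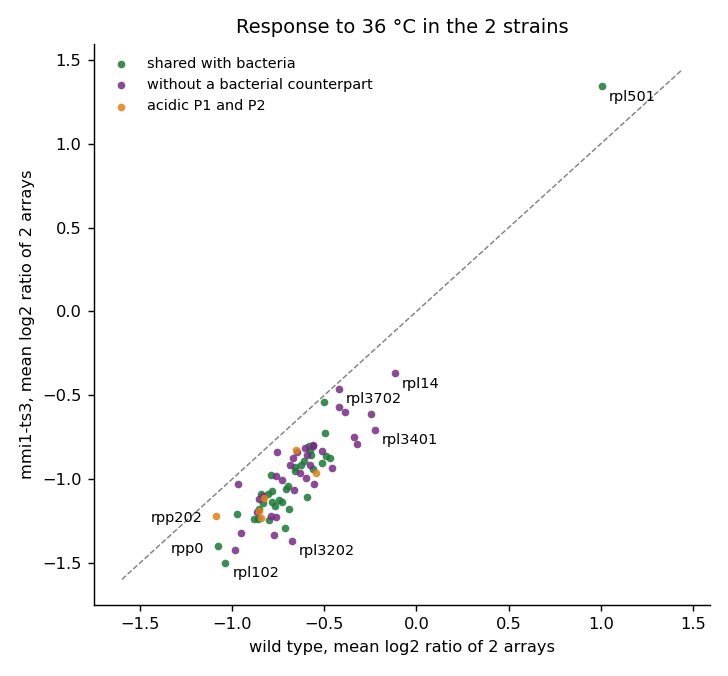
Each point is a large subunit gene, with its mean log2 ratio over 2 mmi1-ts3 arrays on the vertical axis and over 2 wild-type arrays on the horizontal axis, coloured by the origin of its protein; the dashed line marks equal responses. All genes but rpl501 lie below 0 in both strains and below the line, with rpl3702 and rpl2501 nearest to it.

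Between the strains, the fall of the large subunit genes as a set was deeper in mmi1-ts3. Differences of single genes were small, and that of rpl501, which rose, was above 0. The difference of mmi1-ts3 minus wild type had a median of −0.32, a ratio of 0.799, against −0.07 over all genes. It was −0.38 between the replicate 1 arrays and −0.28 between the replicate 2 arrays. The fitted difference was below 0 for 75 of the 76 genes, against 60.8% of all genes. Both mmi1-ts3 arrays lay below both wild-type arrays for 61 of the 76 genes, against 20.4% of all genes, and above both for 0, against 9.31%. These genes share the 4 arrays, so a shift of 1 array moves them together and their number is not a count of independent observations.

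No single gene passed. With limma 0 of the 76 were called at an adjusted p under 0.05, as were 0.0% of all genes, and the smallest adjusted p among them was 0.998. At an unadjusted p under 0.05, rpl3202 and rpl1102 were lower and 0 were higher, or 2 of 76, against 1.89% of all genes in either direction. With the SE of a difference near 0.24, differences of the size seen here could not be told from the spread between arrays gene by gene. The size of the shift depended on how the arrays were scaled, the median difference being −0.17 with quantile normalization, with 70 of 76 genes below 0.

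The largest strain difference was that of rpl3202, which had −1.30 and −1.44 in mmi1-ts3 and −0.57 and −0.79 in the wild type, a difference of −0.69 ± 0.24 (SE). For rpl1102 the arrays had −1.30 and −1.29 in mmi1-ts3 and −0.68 and −0.74 in the wild type, with a difference of −0.58 ± 0.23. The differences of rpl15 (−0.56 ± 0.24), rpl301 (−0.51 ± 0.24), rpl801 (−0.48 ± 0.23) and rpl3401 (−0.48 ± 0.23) came next. In each of these 6 genes the groups of arrays did not overlap, as in 61 of the 76 genes and 20.4% of all genes on the lower side. The 6 were chosen by these same values, so this is no further support for them. As these 6 genes were picked for the largest differences of the set, their paralogs had to have smaller ones. Those were −0.46 for rpl3201, −0.35 for rpl1101, −0.20 for rpl1502 and −0.38 for rpl302. For the paralogs of rpl801 and rpl3401 they were −0.38 (rpl802), −0.24 (rpl803) and −0.40 (rpl3402).

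At the other end, rpl2702 (−0.06 ± 0.27), rpl2501 (−0.04 ± 0.23) and rpl3702 (−0.04 ± 0.23) had nearly the same response in both strains, with overlapping arrays, and rpl501 was the only gene with a positive difference. The signs of the differences of rpl2702, rpl2501, rpl3702 and rpp202 (−0.13 ± 0.34) changed with single arrays left out. Differences of the other stalk genes were −0.32 ± 0.25 for rpp0 and lay between −0.42 and −0.175 for the rest.

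The related lists differed between the strains as follows. The small subunit genes had a median difference of −0.31, with 29 of 47 separated lower, led by rps1002 (−0.56 ± 0.24) and rps1001 (−0.52 ± 0.26). The 60S assembly genes had −0.16, with 12 of 45 separated lower, led by nop2 (−0.60 ± 0.27) and spb4 (−0.49 ± 0.28). The mitochondrial large subunit had −0.02, with 6 of 27 separated lower, and the regulators −0.20, with 6 of 24. Apart from the small subunit, these counts are nearer to the 20.4% of all genes separated lower than to the 61 of 76 large subunit genes. Among the listed regulators, whose role in fission yeast was not tested, rap1 stood at 0.64 ± 0.47 and rrn7 at −0.56 ± 0.23. None of these genes passed over all genes.

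**Figure D4:**
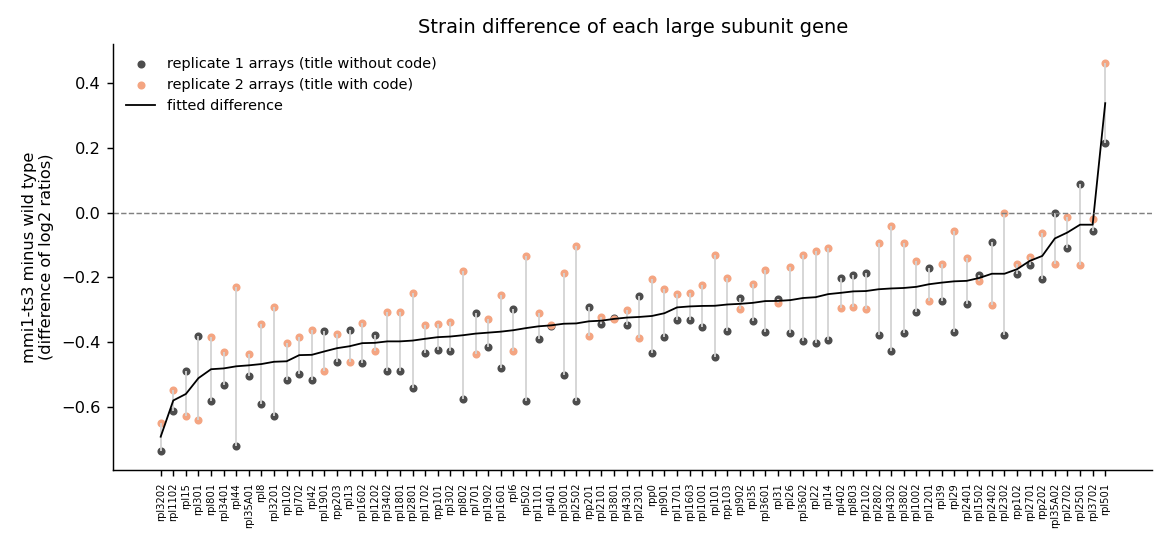
The 76 genes in order of the fitted difference of mmi1-ts3 minus wild type (black line), with the difference between the replicate 1 arrays and between the replicate 2 arrays as points, in log2 units. Nearly all points lie below 0, from rpl3202 at −0.69 to rpl501 at 0.34.

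Paralogs could be compared on the same array, where each pair shares its labelling and hybridisation. Of the 76 genes, 60 belong to 28 families with at least 2 measured paralogs, which gave 36 pairs. The median absolute difference of the responses was 0.13, and 22 pairs were within 0.2 of each other. For comparison, the median over pairs of the SD of a pair's difference over the 4 arrays was also 0.13. In 19 of the 36 pairs the difference had the same sign on all 4 arrays; an exact sign test over 4 arrays cannot give a two-sided p below 0.125, and none was made. The sequences of the spots were not used here, and cross-hybridisation between paralogs was not tested.

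The pair of L5 genes stood far from the rest. On the same array rpl501 was above rpl502 by 2.72 and 2.44 in mmi1-ts3 and by 1.93 and 1.84 in the wild type, a mean of 2.23 ± 0.42 (SD, n = 4), or 4.7-fold. Among the 36 pairs with values on all 4 arrays, the next largest mean difference was 0.50 ± 0.17, that of rpl2701 over rpl2702. There the smaller fall of rpl2701 was seen on all arrays, by 0.34 and 0.58 in mmi1-ts3 and 0.39 and 0.70 in the wild type.

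Of the other pairs with 1 sign on all 4 arrays, the 4 with the largest mean differences follow. The gene rpl3401 was above rpl3402 by 0.40 ± 0.12, rpl2801 above rpl2802 by 0.38 ± 0.19 and rpl101 above rpl102 by 0.34 ± 0.15 (SD, n = 4 arrays each). The gene rpp202 was below rpp203, at −0.40 ± 0.31, but this pair ranged from −0.78 on wild-type replicate 2 to −0.045 on mmi1-ts3 replicate 1. No paralog number was always the higher: the gene ending in 01 was above that ending in 02 for L5, L27, L34, L28 and L1, and below it for L4 and L36, where the means were −0.18 ± 0.08 and −0.14 ± 0.02.

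Other pairs were close on average. The means were −0.003 ± 0.08 for rpl1601 minus rpl1602, 0.007 ± 0.11 for rpl4301 minus rpl4302 and 0.03 ± 0.16 for rpl3201 minus rpl3202. The mean for rpl35A01 minus rpl35A02 was 0.006, but single arrays had −0.42 and 0.04 in mmi1-ts3 and 0.09 and 0.32 in the wild type, so this pair was not measured as alike (SD 0.31, n = 4). Likewise rpl2501 minus rpl2502 had 0.46 and 0.55 in mmi1-ts3 but −0.21 and 0.60 in the wild type.

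**Figure D5:**
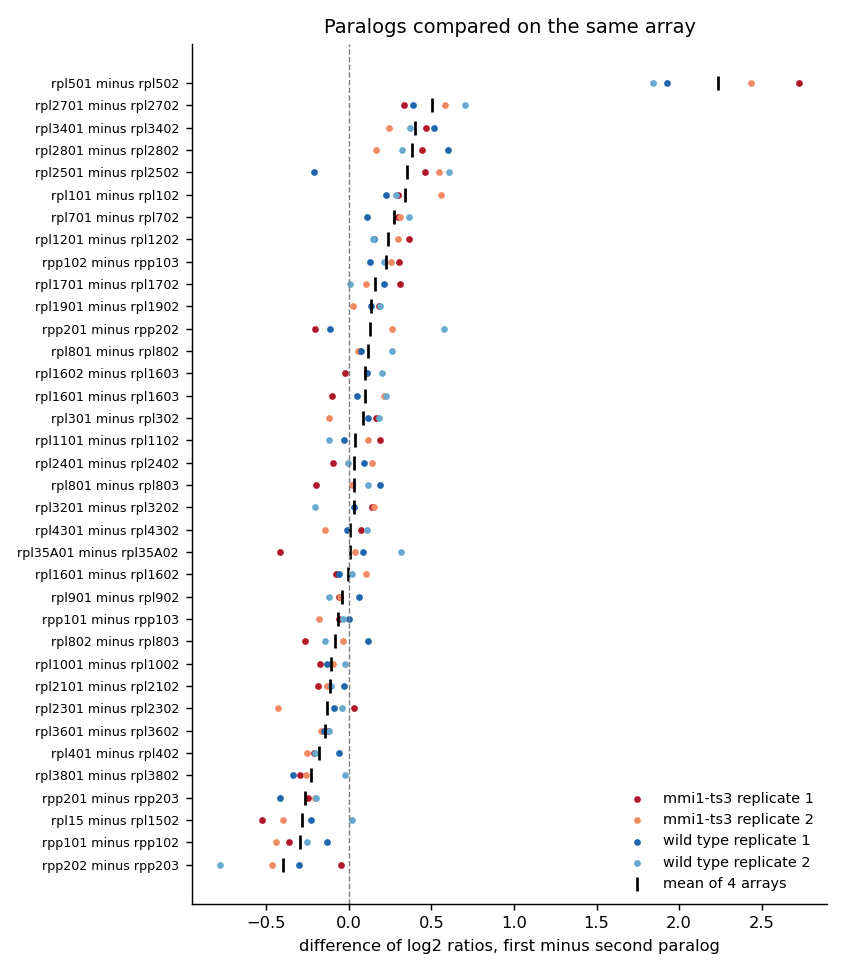
Each row is a pair of paralogs with values on all 4 arrays. Points are the response of the first minus that of the second on each array, and the bar is the mean, in log2 units. Pairs are ordered by the mean. The difference of rpl501 and rpl502 lies between 1.84 and 2.72, and the means of all other pairs shown lie between −0.40 and 0.50. The pair rpl3001 minus rpl3002, with a mean of −0.80 over 3 arrays, is not shown.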

How the data were processed

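Per the labels, 4 arrays with 2 channels were hybridised, 2 of mmi1-ts3 and 2 of the wild type, and sample groups follow their titles. The deposited values are log2 ratios, 1 per spot; the base was read from the values, since the highest, 7.81, exceeds 4.82, the whole range of a 16-bit scanner on a log10 scale, and a natural log is not excluded. Background correction, normalization and dyes behind the ratio are not given in the sources used here: the label field and the labelling protocol name different dyes, with no swap recorded; any dye bias shared by the arrays remains in each response.

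Of 5188 spots, 4933 carry 1 gene by the platform annotation, 1 several and 254 none; 4930 matched RefSeq (ASM294v3) by gene ID. Spots of a gene were averaged, and 4771 genes with values on all arrays were kept. Array medians of −0.00 and 0.10 (mmi1-ts3) and −0.10 and 0.07 (wild type) were subtracted. With limma 3.58.1 (R 4.3.3), a mean per strain was fitted to all 4 arrays (eBayes, residual df 2, prior df 3.56). It was tested two-sided at a Benjamini-Hochberg adjusted p under 0.05. The fit was also run on simulated data, with independent noise and the same change on all 4 arrays. Recovery of a strain difference, or noise shared by arrays of 1 set, was thus not tested. With 2 arrays per strain, the smallest two-sided p of an exact permutation test is 0.333.

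Members, lists and alternatives (centring, scaling, genes and spots kept, variance model, thresholds, log base, array set as a block, arrays left out) were chosen with earlier results of these data known. Genes named are the stalk genes, the 6 lowest and 4 highest members of each comparison, the 6 most and 4 least different paralog pairs, and up to 2 genes of each related list; others are named with their role in the subunit. Promoter and protein sequences were not used here.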

Additional observations from a re-analysis of the deposited data

How the results depend on the processing

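The numbers of large subunit genes called lower were 72 in mmi1-ts3, 46 in the wild type and 0 for the difference. They stayed within 1.5 times of this under every alternative tried other than a stricter threshold or a missing array. At an adjusted p under 0.01 they were 38 and 1. Leaving out each array in turn gave 23 to 70, 1 to 34 and 0; a strain left with 1 array was assumed to vary like the other. The array set as a block (the replicate block) gave 74, 63 and 0, a change under 1.5 times; same-set arrays deviated together (r = 0.379 over all genes, 0.650 over the 76), but the labels name no pairing. Medians of −0.99, −0.67 and −0.32 became −1.43, −0.97 and −0.47 if the values are natural logs. Quantile normalization gave −0.91 in mmi1-ts3 and −0.17 for the difference, and the 4 settings with an array left out ran from −1.03 to −0.94, −0.74 to −0.58 and −0.41 to −0.22. Centring on a running median of neighbouring spots, added after the data were seen, gave 71, 51 and 0. Among the genes named for a comparison, signs turned for rpl14 in the wild type and for 4 strain differences; over all 76 genes, 9 differences were above 0 without wild-type replicate 1 and 6 with quantile normalization, against 1. With arrays left out in turn, rpl14 ran from −0.27 to 0.036 (0.036 without wild-type replicate 2). The difference of rpl2702 ran from −0.2495 to 0.1265 (0.08 without mmi1-ts3 replicate 2, 0.1265 without wild-type replicate 1), that of rpl2501 from −0.132 to 0.057 (0.057 without wild-type replicate 2), that of rpl3702 from −0.0775 to 0.0025 (0.0025 without wild-type replicate 1) and that of rpp202 from −0.469 to 0.201 (0.13 without mmi1-ts3 replicate 2, 0.201 without wild-type replicate 1). Without centring, rpl2702 was at 0.004 and rpl2501 and rpl3702 at 0.028. The 4 paralog pairs with the smallest mean differences also turned sign, between −0.098 and 0.147 with an array left out. The cause was not tested. Of the other values for named genes under these settings, 6 calls in mmi1-ts3 and 17 in the wild type were lost and 1 was gained. Fitting each strain alone gives no difference between strains, so that setting has none.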
